A study of Mus musculus with 8 samples.

Results

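The 9 genes described here, *Ptprc*, *Ly6c2*, *Ccr2*, *Plac8*, *Lyz2*, *S100a8*, *S100a9*, *Itgb2* and *Irf8*, are used as markers of monocytes and neutrophils that enter tissues from the blood. They were taken by symbol from a table of 14506 genes measured in mouse liver, and all 9 were listed there. The 8 livers were 4 labelled RagC S74N (+/+), the wild-type livers (*Rragc* +/+ in the plots), and 4 labelled RagC S74N (KI/+), the knock-in livers (*Rragc* S74N/+ in the plots), which carry 1 mutant and 1 normal copy of *Rragc*. This gene encodes RagC, a GTPase through which amino acids act on mTORC1, and the mutant allele changes serine 74 to asparagine. It was made by genome editing of embryos, so that hepatocytes and leukocytes alike carry it, and it also holds silent base changes. Replicates 1 to 4 were 3, 3, 3 and 2.5 months old in the wild-type group and 3, 3, 2.5 and 2 months old in the knock-in group. No treatment, sex or mouse identifier is given in the labels, so p-values measure the spread between these samples. RNA was taken from whole tissue, so in these values fewer cells of a type and less RNA per cell cannot be told apart.

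Monocytes leave the bone marrow through the chemokine receptor Ccr2 and carry the Ly6C antigen on their surface in their inflammatory state. Neutrophils hold large stores of the calcium-binding proteins S100a8 and S100a9, which pair to form calprotectin. Both cell types stop on vessel walls with integrins built on the Itgb2 chain. Healthy liver holds blood in its sinusoids and a large population of resident macrophages, the Kupffer cells, which also express *Ptprc* and *Lyz2*, so several of these genes are not restricted to cells that arrive from the blood.

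Libraries were made from the 3′ end of messenger RNA, which yields about the same number of reads for a long and a short transcript, so levels of different genes are compared below as normalized read counts, that is, reads divided by a size factor of the library. Between 4313076 and 6632108 reads fell in listed genes of a liver, the fewest in wild-type replicate 3. The 9 genes together held 297 to 949 of these reads, or 0.0051% to 0.0143%. The labels' tissue was plain in the table, since albumin (*Alb*) lay at 57178 normalized counts or more in each liver. The label of infiltrating cells was less so. Of 16 further neutrophil markers the table listed 5, and the 3 most defining ones, *Ly6g*, *Mpo* and *Elane*, were not among them. Of 14 further monocyte markers 10 were listed, and *Chil3* and *F13a1* were not among them. Any filter on genes is not given in the sources used here, so an unlisted gene need not have been without reads. The 9 genes are therefore treated as leukocyte genes named by their symbols and not as a measure of infiltration.

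None of the 9 genes that could be tested passed the threshold between genotypes. Of the 9, 7 had a mean of at least 10 normalized counts over the 8 livers and entered the test of 11174 genes with limma, a linear model on log2(normalized count + 1). None of the 7 had a Benjamini-Hochberg adjusted p under 0.05, a call made for 0.00895% of all genes tested, which is 1 gene, *Gpx3*, a secreted glutathione peroxidase that was lower in knock-in livers (log2 difference -1.95, limma adjusted p = 0.0411). Before adjustment, 4 of the 7 had a limma p under 0.05, and all 4 (*Plac8*, *Irf8*, *Lyz2* and *Ptprc*) were higher in knock-in livers. Over all genes tested, 2.37% were higher at that unadjusted p. Log2 differences were positive for 6 of the 7, against 51.3% of all genes tested, and their median was 0.74 against 0.011. The genes were chosen with earlier results of these data known, so these shares are a description. In none of the 9 did the genotypes fail to overlap, while 1.3% of all tested genes were higher in knock-in livers without overlap. DESeq2 and edgeR on reads recovered from the normalized values also called none of them and put *Plac8*, *Irf8* and *Lyz2* at an unadjusted p under 0.05. *Rragc* itself, the edited gene, lay at 84.1 ± 20.4 in wild-type and 76.6 ± 7.32 in knock-in livers (SD, n = 4 each), a difference smaller than the spread between livers.

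**Figure D1:**
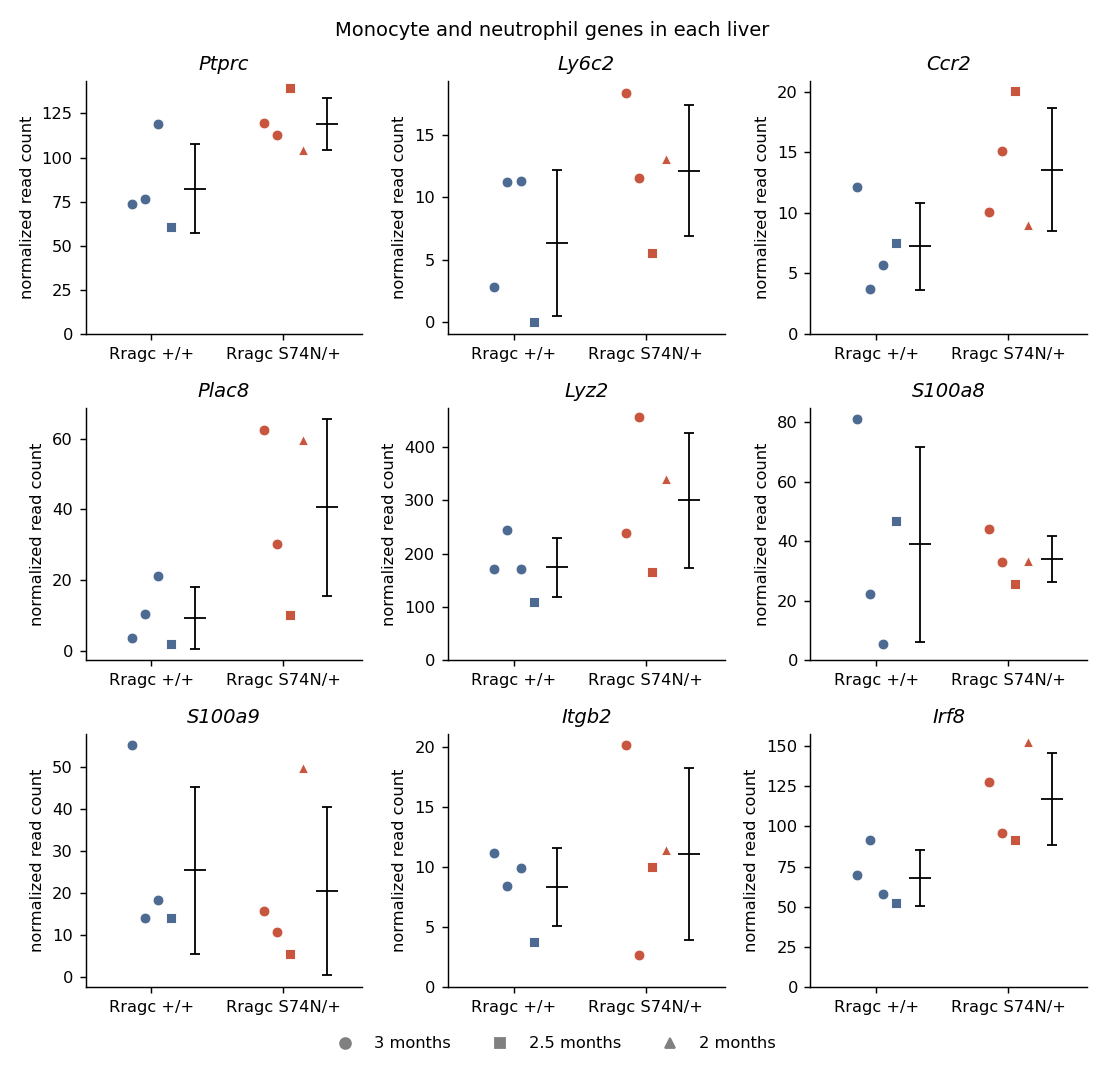
Normalized read count (y axis, linear) of each of the 9 genes in each liver, by genotype (x axis). Symbols give the age of the mouse, the horizontal mark is the mean and the bars are 1 SD (n = 4 per genotype). For *Plac8*, 3 of the 4 knock-in livers lie above the highest wild-type liver, whereas the *S100a8* values of the knock-in livers all lie inside the wild-type range.

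Each gene is placed on GRCm38 with the GENCODE annotation. *Ptprc* (chr1:138062861-138175708, minus strand, overlapping *A130071D04Rik* on that strand) encodes CD45, the receptor phosphatase found on nucleated blood cells. Its normalized counts were 73.6, 76.7, 119 and 60.7 in wild-type replicates 1 to 4 and 119, 113, 139 and 104 in knock-in replicates 1 to 4. The genotypes overlapped through wild-type replicate 3, the library with the fewest reads, which lay level with the knock-in livers. The log2 difference was 0.56 with a standard error of 0.26 and a 95% interval from 0.0079 to 1.11 (limma p = 0.0472, adjusted p = 0.846; exact two-sided permutation p = 0.0857). The exact test runs over 70 labellings of the livers and cannot go below 0.0286. Without wild-type replicate 3 the log2 difference of *Ptprc* was 0.75, and in 3-month-old mice alone, 2 knock-in against 3 wild-type livers, it was 0.40 and no longer under an unadjusted p of 0.05. Further values for 3-month-old mice below compare the same 5 livers.

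Among genes of monocytes, *Plac8* had the largest difference. It lies at chr5:100553725-100572245 on the minus strand and encodes a small cysteine-rich protein found in monocytes, neutrophils and some lymphocytes. Its normalized counts were 3.73, 10.3, 21.2 and 1.87 in wild-type livers and 62.4, 30.2, 10.03 and 59.6 in knock-in livers. Knock-in replicate 3, aged 2.5 months, was the one mutant liver inside the wild-type range. The means were 9.28 and 40.6 (n = 4 each), a 4.37-fold ratio, with SDs of 8.74 and 25.0. This gave a log2 difference of 2.15 ± 0.72 (SE, limma p = 0.0104, adjusted p = 0.846; exact permutation p = 0.0857). Between 2 and 73 reads stood behind each value. The log2 difference was 2.07 in 3-month-old mice alone, and it ran from 1.68 to 2.69 when each liver was left out in turn.

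*Irf8* (chr8:120736358-120756694, plus strand, overlapping *Gm20388*), a transcription factor needed to form monocytes and dendritic cells, came closest to separating the genotypes. Its normalized counts were 69.9, 91.7, 58.0 and 52.3 in wild-type livers and 128, 96.0, 91.4 and 153 in knock-in livers. The lowest knock-in value was just below the highest wild-type value and the groups otherwise did not cross. This gave a log2 difference of 0.77 ± 0.27 (SE, limma p = 0.0132, adjusted p = 0.846; exact permutation p = 0.0571). It was 0.62 in 3-month-old mice alone, where the limma p was 0.0871.

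*Lyz2* (chr10:117277331-117282321, minus strand) encodes lysozyme M, an enzyme that cuts bacterial cell walls, and was the most abundant of the 9 genes. Its normalized counts were 171, 245, 171 and 110.2 in wild-type livers and 239, 457, 166 and 341 in knock-in livers. Knock-in replicates 2 and 4 lay above every wild-type liver, and knock-in replicate 3 lay among the wild-type livers. The log2 difference was 0.74 ± 0.32 (SE, limma p = 0.0400, adjusted p = 0.846; exact permutation p = 0.20), and 0.77 in 3-month-old mice alone. In the annotation used here, 17.7% of the 50-base words in the last 400 bases of *Lyz2* transcripts also occur in *Lyz1*. *Lyz1* was not listed, and some *Lyz2* reads may have been ambiguous between both genes.

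*Ly6c2* (chr15:75108158-75111970, minus strand) and *Ccr2* (chr9:124101950-124113557, plus strand), by which inflammatory monocytes are usually told apart, were close to the lower limit of the table. *Ly6c2* lay at 2.80, 11.2, 11.3 and 0 normalized counts in wild-type livers and at 18.4, 11.6, 5.57 and 13.1 in knock-in livers. With 0 to 20 reads per liver it did not pass the filter, and its log2 difference of 1.32 had an exact permutation p of 0.171. The size of this difference rested on wild-type replicate 4, which held no read, since without that liver it was 0.56. Of the words in the ends of *Ly6c2* transcripts, 35.4% also occur in *Ly6c1*, *Ly6a* or a neighbouring gene of the same family, so its reads are uncertain. Reads given to *Ly6c1* itself numbered 0 to 5 per liver. *Ccr2* lay at 12.1, 3.74, 5.66 and 7.47 in wild-type livers and at 10.1, 15.1, 20.1 and 8.97 in knock-in livers. Its log2 difference was 0.85 with a 95% interval from -0.38 to 2.09 (limma adjusted p = 0.846; exact permutation p = 0.114), on 4 to 18 reads per liver.

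Both genes of the calprotectin pair had a lower mean in knock-in livers, by less than the spread between livers. *S100a8* (chr3:90668978-90670035, plus strand) was at 81.1, 22.4, 5.66 and 46.7 normalized counts in wild-type livers and at 44.1, 32.9, 25.6 and 33.4 in knock-in livers. The wild-type livers ranged widely and enclosed all 4 mutant livers. The mean was lower in knock-in livers (34.0 ± 7.59 against 39.0 ± 32.8, SD, n = 4 each), while the log2 difference was positive at 0.30 with a 95% interval from -1.03 to 1.63 (limma adjusted p = 0.920). The sign depended on wild-type replicate 3, which held 4 reads, since the log2 difference was -0.39 without it, and it was -0.21 with edgeR and -0.20 with DESeq2 on all livers.

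*S100a9* (chr3:90692632-90695721, minus strand) was at 55.0, 14.03, 18.4 and 14.01 in wild-type livers and at 15.6, 10.7, 5.57 and 49.8 in knock-in livers. A single liver of each genotype, wild-type replicate 1 and knock-in replicate 4, stood above the rest. This gave a log2 difference of -0.48 with a 95% interval from -1.86 to 0.90 (limma adjusted p = 0.876; exact permutation p = 0.543). Its size rested on single livers, being -0.037 without wild-type replicate 1, -0.054 without knock-in replicate 3 and -1.04 without knock-in replicate 4. Both genes encode parts of the same protein complex and lie near each other on chromosome 3, but their order among livers was shared only in part. Both were highest in wild-type replicate 1 and, among knock-in livers, lowest in replicate 3. In knock-in replicate 4, however, *S100a9* was high and *S100a8* intermediate.

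*Itgb2* (chr10:77530252-77565708, plus strand), the chain common to the leukocyte integrins, was at 11.2, 8.42, 9.90 and 3.74 in wild-type livers and at 20.2, 2.67, 10.03 and 11.4 in knock-in livers. Both the highest and the lowest of these values belonged to knock-in livers. The log2 difference was 0.21 (exact permutation p = 0.714), on 3 to 22 reads per liver, and the gene did not pass the filter. It was -0.29 in 3-month-old mice alone.

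**Figure D2:**
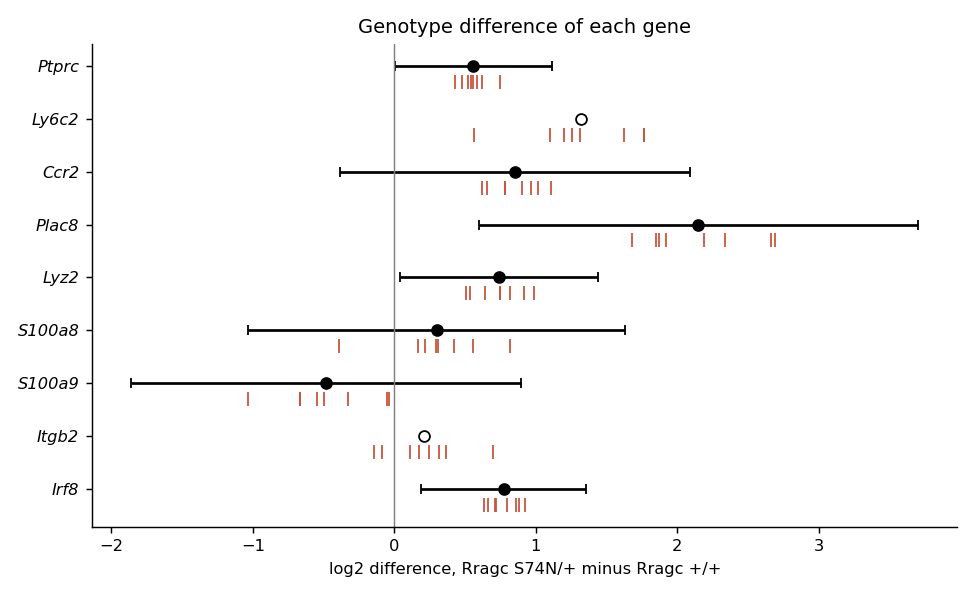
Log2 difference between genotypes (x axis, positive where knock-in livers are higher) for each of the 9 genes (y axis). Filled points with bars are limma estimates with 95% intervals, open points are the differences of the genes that did not pass the filter, and red marks are the differences with 1 liver left out at a time. The intervals of *Ptprc*, *Plac8*, *Lyz2* and *Irf8* lie above 0, by the least margin for *Ptprc*, and no gene passes adjustment.

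Ordered by mean normalized count over the 8 livers, the genes ran from *Lyz2* (237) through *Ptprc* (101), *Irf8* (92.4), *S100a8* (36.5), *Plac8* (24.9), *S100a9* (22.9) and *Ccr2* (10.4) to *Itgb2* (9.69) and *Ly6c2* (9.23). *Lyz2* exceeded 81.9% of all listed genes and *Ly6c2* exceeded 21.6%. The step from *Lyz2* to *Ptprc* was seen in 8 of 8 livers and that from *Irf8* to *S100a8* in 7 of 8. *Ptprc* exceeded *Irf8* in 5 of 8 livers, *S100a8* exceeded *Plac8* in 5, *Plac8* exceeded *S100a9* in 5 and *S100a9* exceeded *Ccr2* in 6, so these neighbours were not set apart by their spread. *Ccr2* exceeded *Itgb2* in 4 of 8 livers, as *Itgb2* did *Ly6c2*. *Plac8* was the most variable, with a coefficient of variation of 96.7% over the livers, and *Ptprc* the least, with 27.1%.

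*Ly6c2*, *Plac8*, *Lyz2* and *Irf8* followed each other over the 8 livers, with Pearson correlations of their log2 values between 0.70 and 0.89, and *Ly6c2* and *Plac8* ranked the livers in the same order. With the mean of each genotype removed, these correlations were 0.51 to 0.87. Wild-type replicate 4 was the lowest liver for each of these 4 genes and for *Ptprc*. *Ccr2* had correlations of -0.056 to 0.22 with the 4 genes, and *S100a8* of -0.39 to 0.20. *S100a8* and *S100a9* had a correlation of 0.31 with each other. These are descriptions over 8 livers, in which the genes of a liver share 1 library, its depth and its mix of cells. Several rest on few reads, and none was tested.

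**Figure D3:**
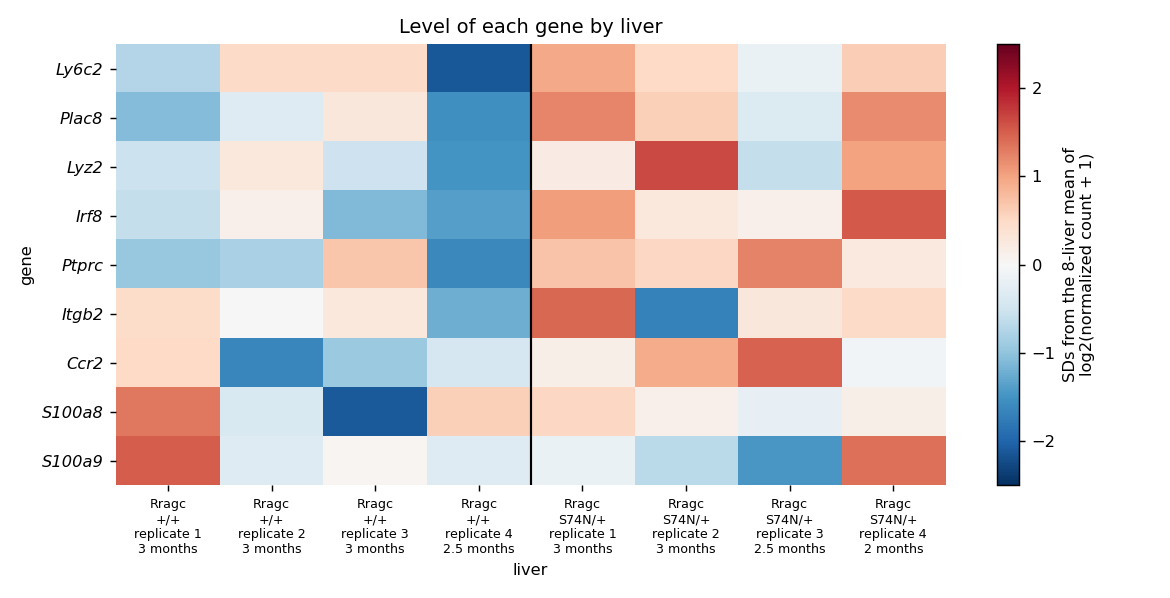
Level of each gene (rows) in each liver (columns), in SDs from the gene's mean over the 8 livers on the log2(normalized count + 1) scale. The black line divides wild-type (left) from knock-in livers (right). The upper 4 rows share a low wild-type replicate 4, and the 2 calprotectin rows do not follow them.

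The RefSeq table of promoters on GRCm38.p6, which spans 250 bases before to 50 after each start, held 8 of the 9 genes. Because *Spi1* encodes PU.1, the factor of the ETS family that directs myeloid genes together with Irf8, these windows were searched on both strands for AGGAAGT, letters that PU.1 and other ETS factors can bind. A match was found for 4 of the 8 genes, and for 10.4% of the 8454 tested genes with a window. The sets are not quite alike, since the 4 include *Ly6c2*, which was not tested. Of the 4 genes that followed each other, *Ly6c2* and *Lyz2* held a match and *Plac8* and *Irf8* did not. The matches before the most upstream RefSeq start are shown with 20 bases on each side, 5′ to 3′ along the gene's strand. The match is in capitals (ACTTCCT is the same site read from the other strand). For *Ptprc* the windows lie within the GENCODE coordinates of the gene given above.
Ptprc, chr1:138175392-138175438, minus strand: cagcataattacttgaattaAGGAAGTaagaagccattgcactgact
Ptprc, chr1:138175337-138175383, minus strand: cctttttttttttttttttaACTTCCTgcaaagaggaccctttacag
Ly6c2, chr15:75112052-75112098, minus strand: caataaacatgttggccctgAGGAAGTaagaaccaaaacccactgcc
Lyz2, chr10:117282346-117282392, minus strand: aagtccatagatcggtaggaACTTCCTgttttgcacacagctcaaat
S100a8, chr3:90668879-90668925, plus strand: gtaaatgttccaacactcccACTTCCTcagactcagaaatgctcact
Counted from the most upstream RefSeq start, the first base of the match was at -113 and -58 for *Ptprc*, -107 for *Ly6c2*, -100 for *Lyz2* and -172 for *S100a8*. A match is a description of these letters and not of binding.

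To ask how the genes stood against the amount of CD45 transcript, each was divided by *Ptprc* in the same liver. The log2 ratio of *Plac8* to *Ptprc* was -3.98, -2.78, -2.43 and -4.43 in wild-type livers and -0.92, -1.87, -3.67 and -0.80 in knock-in livers. The genotype difference of this ratio was 1.59 (exact two-sided permutation p = 0.114). For *Irf8* and *Lyz2* the difference was 0.21 and 0.18 (exact permutation p = 0.60 and 0.714). For *S100a9* it was -1.04 (exact permutation p = 0.286). The other 4 ratios differed by between -0.35 and 0.76, with exact permutation p of 0.429 or more, so none of the 8 ratios had an exact permutation p under 0.05.

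Proteins that act with the 9 genes gave little to set beside them. A list of 14 such genes held ligands of Ccr2, the alpha chains that pair with Itgb2 and their ligands, receptors for calprotectin, and *Spi1*. Of these, 7 were listed and 4 tested, and 0 had a limma adjusted p under 0.05 or an unadjusted p under 0.05, and edgeR and DESeq2 likewise gave 0 at either level. *Spi1* was at 70.2 ± 17.6 and 88.7 ± 23.5 normalized counts in the wild-type and the knock-in group (SD, n = 4 each), a log2 difference of 0.33. The integrin ligands *Icam1* and *Icam2* had log2 differences of 0.29 and -0.31. *Itgam*, the alpha chain of the integrin Mac-1 on monocytes and neutrophils, was listed at 1.40 ± 2.22 and 2.73 ± 0.42 and was not tested.

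Further monocyte markers that were tested did not differ in 1 direction. Of 7 tested, 4 had a positive log2 difference, with a median of 0.36, and 0 passed adjustment. The listed ones that did not pass the filter were *Ms4a4c*, *Spn* and *Vcan*, with at most 13 reads in a liver. Their log2 differences were 1.59, 1.03 and 0.53, all positive and all with overlap. *Ms4a6c*, a membrane protein of monocytes and macrophages, was at 9.46 ± 4.80 in wild-type and 32.1 ± 16.4 in knock-in livers (SD, n = 4 each). It was the single marker of the list with an unadjusted limma p under 0.05 (log2 difference 1.62, limma adjusted p = 0.846, exact permutation p = 0.0571), a level at which 2.37% of all genes tested were higher. *Treml4*, found on patrolling monocytes, had a log2 difference of 1.27 (exact permutation p = 0.143) and was under an unadjusted p of 0.05 with edgeR and DESeq2. *Csf1r*, the receptor for the macrophage growth factor M-CSF, was at 1176 ± 237 and 911 ± 232, a log2 difference of -0.38 (exact permutation p = 0.171). Of the neutrophil markers, *Cebpe*, a factor of granule formation, was the one tested and had a log2 difference of -0.84 (exact permutation p = 0.257). The others listed did not pass the filter, with at most 20 reads in a liver, and were mixed. Their log2 differences were 0.80 for *Retnlg*, 0.70 for *Cxcr2*, -0.061 for *Csf3r* and -0.88 for *Mmp9*.

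Of 18 tested genes that leukocytes share, 16 had a positive log2 difference, with a median of 0.44 (all genes tested 51.3% and 0.011). The list was chosen with earlier results of these data known, so these shares are a description. At an unadjusted limma p under 0.05, 3 genes of the list differed, all higher in knock-in livers (limma adjusted p = 0.846 for each). Of all genes tested, 2.37% were higher at that p. These were *Hcls1* and *Cd53*, with log2 differences of 0.94 and 1.40, and *Tyrobp*, the adaptor DAP12 of myeloid receptors, with 0.73. None passed adjustment. The summed level of the list was 1024 to 1279 normalized counts in wild-type and 1178 to 1697 in knock-in livers.

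Markers of cells that could carry the 9 genes, or that show how much blood a sample held, are given for comparison, and their part in the differences above was not tested. The 10 Kupffer cell markers summed to 2081 to 3480 normalized counts in wild-type and 2394 to 3898 in knock-in livers. Their median log2 difference was 0.16, and *Clec4f*, the most specific of them, was at 423 ± 98.2 and 331 ± 104 (SD, n = 4 each). *Adgre1* and *C1qc* were higher in knock-in livers and *Cd163* lower at an unadjusted limma p under 0.05 (adjusted p = 0.846 for each). *Cd163* did not overlap between genotypes. Of all tested genes 2.37% were higher and 2.8% lower at that p, and 1.64% were lower without overlap. The exact permutation p was 0.114 for *Adgre1*, 0.143 for *C1qc* and 0.0286 for *Cd163*. *C1qa* and *C1qb*, of the same list as *C1qc*, had log2 differences of -0.065 and 0.17. Red blood cell genes summed to 7782 to 14303 in wild-type and 7828 to 13342 in knock-in livers, with *Hbb-bs* at 2332 and 3206 and *Hba-a1* at 1590 and 1485 on average. Platelet genes summed to 26.2 to 32.7 and 29.0 to 48.0, and *Cd79a* of B cells and *Cd3e* of T cells lay at 13.1 normalized counts or fewer in each liver. B cell markers summed to 15.0 to 46.6 and 23.4 to 51.4, T and NK cell markers to 24.2 to 52.3 and 15.6 to 34.3, and dendritic cell markers to 59.9 to 104 and 53.3 to 96.0 in the wild-type and the knock-in group.
The 5 hepatocyte genes had a median log2 difference of 0.75, against 0.74 for the 7 tested genes, led by *Pck1* and *Tat*, and *Alb* varied from 57178 to 252840 normalized counts between livers.

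**Figure D4:**
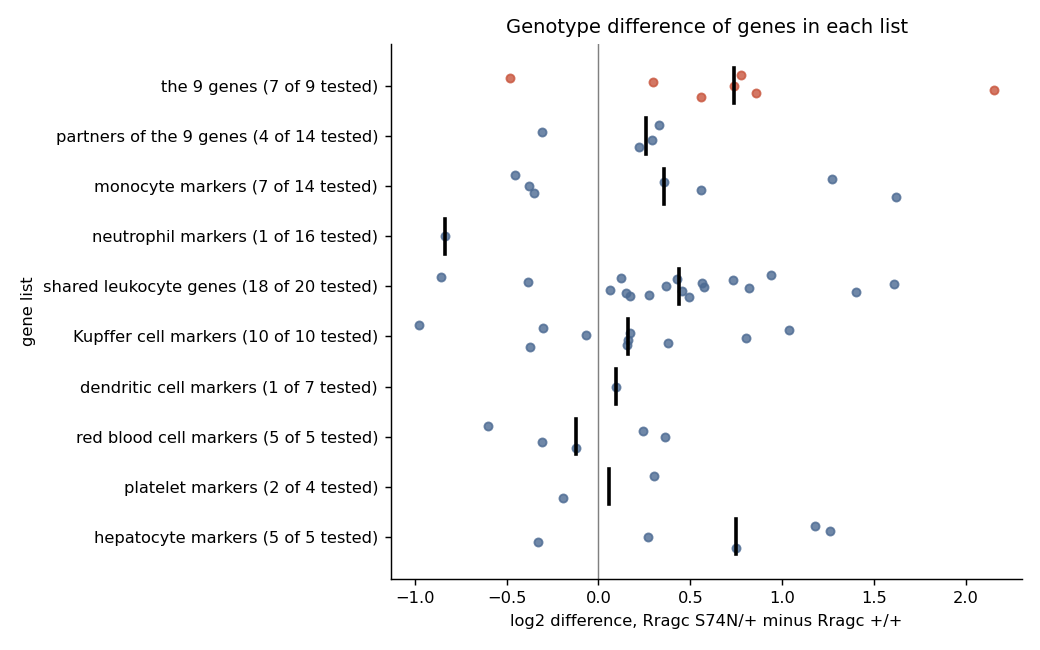
Log2 difference between genotypes (x axis, positive where knock-in livers are higher) of every tested gene in each list (y axis), with the median as a black bar. Red points are the tested genes of the 9, with a median of 0.74, and blue points are the other lists. The lists of shared leukocyte genes and hepatocyte markers also lie mostly above 0.

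Among the 5 tested genes outside the 9 whose log2 values followed the mean standardized level of the 7 tested genes most closely over the 8 livers were *Efcab14*, *Hunk*, *Prpf38a* and *Zfp414*, with Pearson correlations from 0.95 to 0.98. They were picked from 11167 genes for this likeness, so the values are a description. *Efcab14* was at 126 ± 9.87 normalized counts in wild-type and 150 ± 8.46 in knock-in livers (SD, n = 4 each). *Prpf38a*, which encodes a splicing factor, was at 24.5 ± 3.10 and 37.2 ± 4.87, on 19 to 52 reads per liver.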

How the data were processed

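The 8 liver samples were profiled with a 3′ mRNA kit. Reads were mapped by the authors on GRCm38 using TopHat2 2.0.10, Bowtie 1.0.0 and SAMtools 0.1.19 and counted per gene and strand with HTSeq 0.6.1 against GENCODE M20. The counts were then scaled by library with DESeq (tool versions per the submitters’ processing notes). The deposited signal is 1 normalized count for each gene in each library. Any filter on genes is not given in the sources used here. Each value was a whole multiple of the smallest value in its library (100% within 0.001), so whole reads were recovered. No molecular identifiers are stated for liver, so reads are not independent molecules. Libraries held 4313076 to 6632108 reads, which leaves genes under about 20 reads imprecise. No other columns of samples were present.

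Groups came from the genotype labels, and replicate numbers follow sample order. The 9 genes and all lists were chosen with earlier results of these data known. Differences were tested with limma 3.58.1 in R 4.3.3 (genotype as the one term, empirical Bayes with a trend, pseudocount 1, mean of at least 10), adjusted over 11174 genes. Exact permutation tests are two-sided. Named genes were the 9 genes, *Rragc*, the 3 genes of each list with the smallest p and its defining markers, the 5 genes most alike in pattern and any gene past the threshold. Of the 5, 1 is not reported here. Lymphocyte, dendritic, platelet and red cell lists are given mainly as totals. As alternatives, recovered reads went to edgeR 4.0.16, which called 1 gene, and to DESeq2 1.42.0, which called 10. Other pseudocounts, filters, scalings, age terms and left-out livers were also tried. Coordinates and shared words are from GENCODE M21 transcripts on GRCm38 and promoters from RefSeq on GRCm38.p6. The fit was tested on simulated counts with known changes.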

Additional observations from a re-analysis of the deposited data

How the results depend on the processing

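None of the 9 genes passed the adjusted threshold where it was tested, which was 7 of them in most of the 15 other settings and in the 8 fits that left out a liver, 3 at a mean of at least 50, and all 9 in the 3 settings without a filter. The number of them at an unadjusted p under 0.05, 4 with all livers, was 2 in 3-month-old mice alone (*Lyz2* and *Plac8*) and 2 without both wild-type replicate 3 and knock-in replicate 4 (*Ptprc* and *Plac8*). It was 2 to 3 when a liver was left out, with 2 (*Irf8* and *Plac8*) without wild-type replicate 1, wild-type replicate 4 or knock-in replicate 2. The number of all genes past the threshold, 1 with limma, was 0 without the trend, 0 with age in months as a covariate, 0 in 3-month-old mice alone, 0 without the 2 livers named above, 3 with age as a factor, 10 with DESeq2 and 6 with DESeq2 without a filter, and 0 to 2 when a liver was left out (2 without knock-in replicate 3). Where it was 0, the genes at an unadjusted limma p under 0.05 numbered 603, 415, 641 and 392 in the order given, and 315 to 759 with 1 liver fewer. The log2 difference of *S100a8* turned to -0.21 with edgeR and -0.20 with DESeq2, to -0.21 with either on unfiltered reads, and to -0.39 without the 2 livers. Single livers left out gave -0.39 to 0.82. That of *S100a9* ran from -1.04 (without knock-in replicate 4) to -0.037 (without wild-type replicate 1) and was -1.10 without the 2 livers. That of *Itgb2* turned to -0.29 in 3-month-old mice and spanned -0.14 to 0.70 over the fits with 1 liver fewer. Relative to *Ptprc*, *S100a8* turned to 0.34 in 3-month-old mice, and leaving out a liver gave ranges of -1.14 to 0.30 for *S100a8*, -0.70 to 0.12 for *Itgb2*, -0.078 to 0.51 for *Lyz2* and -0.039 to 0.40 for *Irf8*. The cause was not tested. The unfiltered count tools and the fit without 2 livers were added after the data were seen. Depth limits *Ly6c2*, *Itgb2* and *Ccr2*, which held at most 22 reads in a liver. No paired analysis was possible because the labels carry no replicate numbers, and those used here follow sample order.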

Other observations

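*Cd4*, the co-receptor of helper T cells, was at 3.73 to 11.3 normalized counts in wild-type and 0 to 1.11 in knock-in livers, without overlap (exact two-sided permutation p = 0.0286, the smallest possible). It held 0 to 8 reads per liver and did not pass the filter. Of the other 4 T and NK cell markers listed, *Cd3d* and *Cd3e* had log2 differences of -1.66 and -0.39 and *Nkg7* and *Gzma* of 0.19 and 0.99, all with overlap. *Alas2*, a heme enzyme of red cell precursors, was at 566 ± 120 and 390 ± 132 (SD, n = 4 each), lower in 4 of 4 knock-in livers than in any wild-type liver (limma adjusted p = 0.846). The globin genes were mixed, with log2 differences of 0.36 for *Hbb-bs*, 0.24 for *Hbb-bt*, -0.12 for *Hba-a1* and -0.31 for *Hba-a2*, all with overlap. Of all genes tested, which do not include *Cd4*, 1.64% were lower without overlap. Both *Cd4* and *Alas2* were singled out after their values were seen.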
